A study of Mus musculus with 16 samples.

Results

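The SoxF group of transcription factors (Sox17, Sox7 and Sox18) and RP23-285G23.2, the non-coding gene that overlaps the 5′ end of Sox17 on the opposite strand, were followed through RNA-seq libraries of lung endothelial cells (ECs), which form the inner wall of vessels. The members were chosen by gene name, 4 of the 43346 genes in the deposited table, and the choice was made with measured values of these libraries known. The levels of the 4 genes are therefore given as a description, with standard errors and without p-values. All 4 had counts in every library and passed the low-count filter of the test.

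The FVB mice carried a Col1α1-GFP transgene, in which a collagen promoter drives a fluorescent protein, and this transgene was shared by all groups. They were 2 months old (young) or 18 months old (aged) and received bleomycin, a drug that injures the lung and leads to fibrosis, or PBS alone (sham) into the trachea. ECs were sorted 30 days later as CD31 positive cells without CD45, EpCAM and GFP, which were used to leave out leukocytes, epithelium and collagen-producing cells. Young mice gave 5 libraries after PBS (Young Sham) and 4 after bleomycin (Young Bleo), aged mice 3 (Aged Sham) and 4 (Aged Bleo), and the comparisons asked how age and injury changed the transcriptome of these cells.

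SoxF proteins bind DNA through a high mobility group (HMG) box and act together in the formation of blood and lymphatic vessels. Sox17 is known for its role in arterial ECs, where it works alongside Notch and VEGF signals. Sox18 is known for switching on Prox1 in lymphatic precursors, and Sox7 for vessel formation in the embryo, where the members can stand in for each other in part.

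The 3 factors sit on separate chromosomes. In mm10 (GRCm38), Sox17 (ENSMUSG00000025902) lies at chr1:4490931-4497354 on the minus strand, Sox7 (ENSMUSG00000063060) at chr14:63943674-63950732 on the plus strand and Sox18 (ENSMUSG00000046470) at chr2:181669836-181671640 on the minus strand. The longest run of bases shared by whole transcripts was 29 for Sox17 and Sox18, 22 for Sox17 and Sox7 and 20 for Sox7 and Sox18, all shorter than the 100 bases of a read.

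RP23-285G23.2 (ENSMUSG00000104238, listed as Gm37587 in GENCODE M21) lies at chr1:4496551-4499558 on the plus strand and is a processed transcript with no known protein. Its exons share 804 bases with those of Sox17, which is 27.6% of its own exonic bases and 16.8% of those of Sox17. Only 2 of the 8 annotated Sox17 transcripts and the longer of the 2 antisense transcripts reach into the shared stretch. The spliced antisense form shares 0 bases and starts 119 bases beyond the end of Sox17. Its first exon, chr1:4497474-4497654 on the plus strand, is shown because it is a stretch near Sox17 that only the non-coding gene covers.
RP23-285G23.2: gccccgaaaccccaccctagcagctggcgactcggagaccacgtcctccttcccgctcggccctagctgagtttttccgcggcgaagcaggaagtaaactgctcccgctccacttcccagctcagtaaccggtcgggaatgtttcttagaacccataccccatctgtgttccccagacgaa
The library kit in the labels does not keep the strand of the RNA, and the strand setting of the counting is not given in the sources used here. Reads of the 804 shared bases could therefore not be told apart. RP23-285G23.2 had only 0.869 to 2.70 reads per 100 Sox17 reads, so reads of Sox17 RNA could make up much or all of its count and of its differences between groups, and the RP23-285G23.2 values below are uncertain to that extent.

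Libraries held 20907113 to 71035301 counts. All 8 endothelial markers were detected in every group, with summed levels of 11302 to 12430 CPM (counts scaled to a common library total) in Young Sham, 7027 to 10397 CPM in Young Bleo, 9018 to 10319 CPM in Aged Sham and 6652 to 9990 CPM in Aged Bleo. The sum was below the lowest sham library in 6 of 8 bleomycin libraries, but a sum follows its most abundant genes, and the single markers went both ways. Between Young Bleo and Young Sham 2 of 8 were called higher and 2 lower (median log2 fold change -0.03), and between Aged Bleo and Aged Sham 1 and 1 (-0.06). Over all genes, 7.57% were called higher and 6.35% lower in the first comparison, and 3.40% and 2.45% in the second. The part of the endothelial markers in the Sox17 values was not tested. All 16 libraries had more reads of the Y-linked gene Ddx3y than of Xist, although the methods name mice of both sexes. Libraries of the same group differed by far more than counting noise, with chi-square values per degree of freedom between 35.1 and 459. By the study's description the ECs came from the lungs of individual mice, so the tests measure the spread between mice.

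Sox17, the arterial member, was higher in every library of ECs after bleomycin than in any sham library. Values are normalized read counts, which are deposited counts divided by the DESeq2 size factor of the library. Young Sham libraries had 10140, 7823, 8802, 6588 and 8782 normalized counts, and Young Bleo libraries had 49835, 47927, 36225 and 23359. Aged Sham libraries had 6840, 12954 and 5003, and Aged Bleo libraries had 45252, 34806, 13115 and 13834. All 8 bleomycin libraries lay above the highest of the 8 sham libraries, but Aged Bleo 3 and Aged Bleo 5 did so narrowly, next to Aged Sham 14.

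The order of the group means was Young Bleo (39337 ± 12233, SD, n = 4), Aged Bleo (26752 ± 15916, n = 4), Young Sham (8427 ± 1318, n = 5) and Aged Sham (8265 ± 4163, n = 3). Libraries of Young Bleo and Aged Bleo overlapped, as did those of Young Sham and Aged Sham, and no bleomycin group overlapped a sham group. Sox17 was 4.67-fold higher in Young Bleo than in Young Sham (log2 fold change 2.22 ± 0.36, SE) and 3.17-fold higher in Aged Bleo relative to Young Sham (1.67 ± 0.36). Within aged mice it was 3.24-fold higher after bleomycin (1.69 ± 0.41). The comparisons against Young Sham share their control libraries.

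For age, the intervals were wide. The log2 fold change of Sox17 was -0.03 ± 0.39 between Aged Sham and Young Sham, with a 95% interval of -0.80 to 0.74, and leaving out 1 library at a time gave -0.51 to 0.23, so its sign turned. Between Aged Bleo and Young Bleo it was -0.56 ± 0.38, with a 95% interval of -1.30 to 0.19. The aged response minus the young response was -0.53 ± 0.55, with a 95% interval of -1.60 to 0.54, so neither an equal response nor a clearly smaller one in aged ECs is shown.

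**Figure D1:**
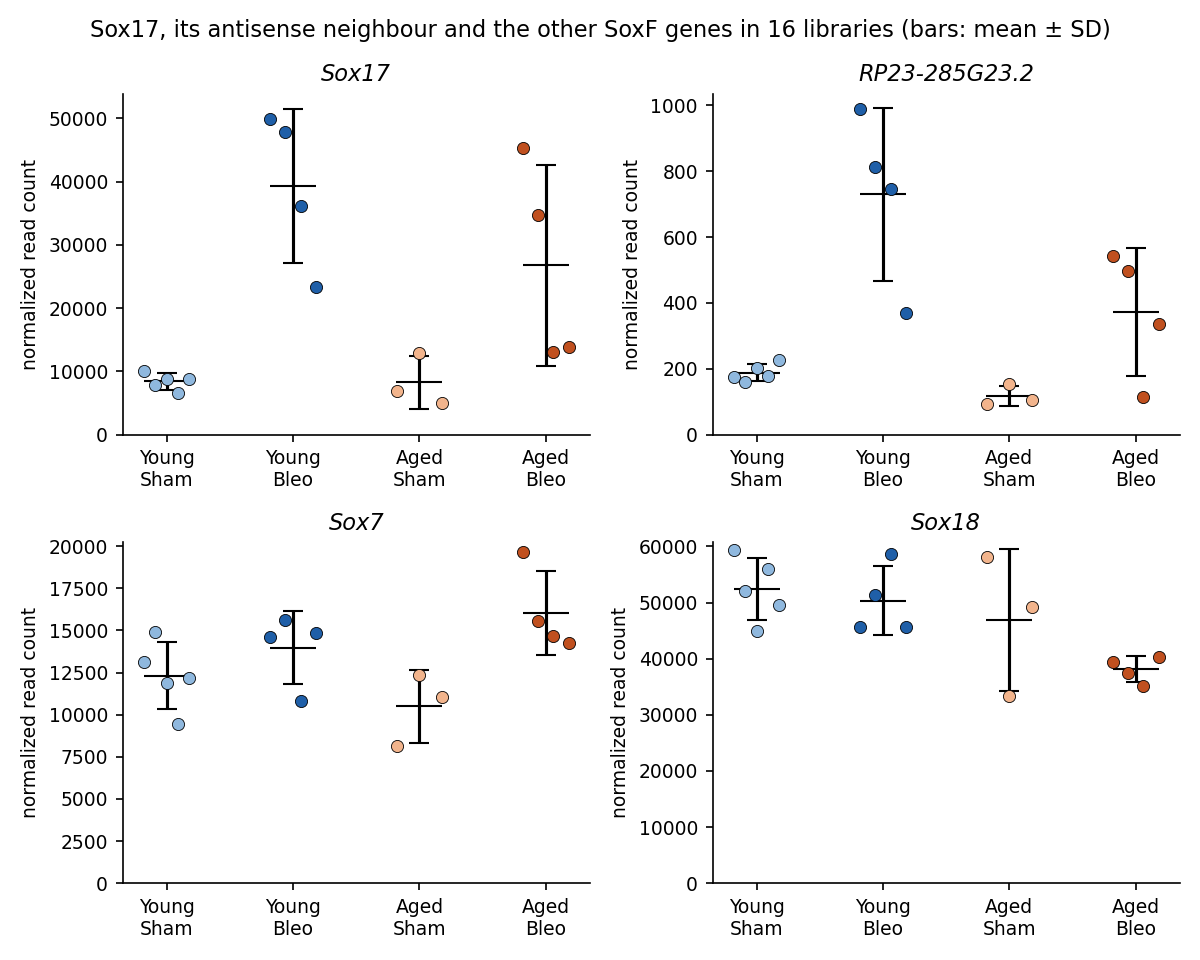
Normalized read counts of Sox17, RP23-285G23.2, Sox7 and Sox18 (vertical axes, each from 0) in the libraries of the 4 groups; points are libraries and bars are means with SD. Sox17 has Young Bleo points from 23359 to 49835 above Young Sham points from 6588 to 10140, while Aged Bleo splits into 45252 and 34806 on one side and 13115 and 13834 on the other.

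The spread between libraries was also unlike in these small groups, but a difference in spread was not tested. The coefficient of variation of Sox17 was 15.6% for Young Sham and 31.1% for Young Bleo, against 50.4% for Aged Sham (n = 3) and 59.5% for Aged Bleo, so it was wide in both aged groups, and the highest Aged Bleo library had 3.45 times the lowest. Relative to the mean of Aged Sham, Aged Bleo 1 and Aged Bleo 2 were 5.47-fold and 4.21-fold higher, while Aged Bleo 3 and Aged Bleo 5 were 1.59-fold and 1.67-fold higher. In Young Bleo, the library nearest to sham was Young Bleo 20, at 2.77 times the mean of Young Sham, and the others lay between 4.30 and 5.91 times. Counting error was small beside this spread, since the lowest Sox17 count, 3423 reads in Aged Sham 13, has an exact Poisson 95% interval of 3309 to 3540. These intervals cover counting error only.

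RP23-285G23.2, the antisense non-coding gene, was present at a small fraction of the Sox17 level and had its highest values in the same libraries. Young Sham libraries had 176, 161, 201, 178 and 226 normalized counts, and Young Bleo libraries had 990, 813, 746 and 369. Aged Sham libraries had 93.9, 153 and 106, and Aged Bleo libraries had 543, 497, 114 and 337. Of the 8 bleomycin libraries, 7 lay above every sham library, and the exception, Aged Bleo 3, was at the level of Aged Sham.

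The means were 730 ± 261 (SD, n = 4) in Young Bleo, 373 ± 194 (n = 4) in Aged Bleo, 188 ± 25.5 (n = 5) in Young Sham and 118 ± 31.5 (n = 3) in Aged Sham. Neighbours in this order overlapped, except that all Aged Sham libraries lay below all Young Sham libraries. RP23-285G23.2 was 3.88-fold higher in Young Bleo than in Young Sham (log2 fold change 1.96 ± 0.37, SE), 1.98-fold higher for Aged Bleo against Young Sham (0.99 ± 0.37) and 3.16-fold higher for Aged Bleo against Aged Sham (1.66 ± 0.43). It was 1.59-fold lower for Aged Sham against Young Sham (-0.67 ± 0.41) and 1.96-fold lower for Aged Bleo against Young Bleo (-0.97 ± 0.39). The aged response minus the young response was -0.30 ± 0.57 on the log2 scale.

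Set against Sox17 in the same library, RP23-285G23.2 gave 0.869 to 2.70 reads per 100 Sox17 reads. The ratio was 2.27 ± 0.392 (SD) in Young Sham and 1.56 ± 0.497 in Aged Sham, against 1.83 ± 0.229 in Young Bleo and 1.48 ± 0.677 in Aged Bleo, and the groups overlapped. The lowest count, 47 reads in Aged Sham 13, has an exact Poisson 95% interval of 34.5 to 62.5, so single libraries of this gene are much less precise than those of Sox17.

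Sox7, the member known from early vessel formation, differed between groups by far less. Young Sham libraries had 13125, 14920, 11864, 9467 and 12164 normalized counts, and Young Bleo libraries had 14623, 15642, 10823 and 14867. Aged Sham libraries had 8123, 12331 and 11040, and Aged Bleo libraries had 19675, 15576, 14650 and 14240. Only Aged Sham and Aged Bleo were separated, and every other pair of groups overlapped.

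Sox7 means ran from 16035 ± 2490 (SD, n = 4) in Aged Bleo through 13989 ± 2155 (n = 4) in Young Bleo and 12308 ± 1986 (n = 5) in Young Sham to 10498 ± 2156 (n = 3) in Aged Sham. Sox7 was 1.53-fold higher in Aged Bleo than in Aged Sham (log2 fold change 0.61 ± 0.20, SE) and 1.14-fold higher in Young Bleo than in Young Sham (0.18 ± 0.17). The aged response minus the young response was 0.43 ± 0.26, with a 95% interval of -0.08 to 0.94. Its sign was opposite to that of Sox17, and both intervals include 0.

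Sox18, the member tied to lymphatic development, was the most abundant of the 4 per gene length (FPKM, given below) in every library, and its mean count was lowest in Aged Bleo. Young Sham libraries had 59303, 51984, 44977, 56045 and 49604 normalized counts, and Young Bleo libraries had 45606, 51312, 58636 and 45635. Aged Sham libraries had 58169, 33305 and 49172, and Aged Bleo libraries had 39451, 37518, 35075 and 40270. Aged Bleo lay below all Young Sham and Young Bleo libraries but overlapped Aged Sham, where Aged Sham 14 was lower than any Aged Bleo library.

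Sox18 means were 52383 ± 5568 (SD, n = 5) in Young Sham and 50297 ± 6173 (n = 4) in Young Bleo, followed by 46882 ± 12589 (n = 3) for Aged Sham and 38079 ± 2311 (n = 4) for Aged Bleo, and the first 3 groups overlapped each other. The log2 fold change was -0.46 ± 0.15 (SE) for Aged Bleo against Young Sham, -0.40 ± 0.16 for Aged Bleo against Young Bleo and -0.30 ± 0.17 for Aged Bleo against Aged Sham. Young Bleo and Young Sham were close, at -0.06 ± 0.15.

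Across comparisons, the 4 genes fell into a pair that changed several-fold with bleomycin (Sox17 and RP23-285G23.2) and a pair that moved by at most 1.53-fold in all 6 comparisons (Sox7 and Sox18). A gene was called where DESeq2 gave an adjusted p of at most 0.05 and a log2 fold change of at least 0.5 in size, over all genes tested. For Young Bleo against Young Sham, Sox17 and RP23-285G23.2 were called, 2 of 4 members, beside 13.9% of 18515 genes. For Aged Bleo against Young Sham Sox17 was called, 1 of 4, beside 9.73%. For Aged Bleo against Aged Sham Sox17, RP23-285G23.2 and Sox7 were called, 3 of 4, beside 5.85%. No member was called between Aged Sham and Young Sham (3.36% of genes called), between Aged Bleo and Young Bleo (0.990%) or in the difference of responses (0.378%). Because the members were chosen with these values known, nothing is read from the counts.

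Leaving out libraries reuses the values known when the members were chosen, so it shows only how far the calls rest on single libraries. The calls in young mice held when any 1 of the 16 libraries was left out. Within aged mice, Sox17 kept its call in 16 of 16 such fits, RP23-285G23.2 in 15 and Sox7 in 12. RP23-285G23.2 lost it without Aged Bleo 1 (log2 fold change 1.42), and Sox7 without Aged Bleo 1 (0.50), Aged Bleo 2 (0.62), Aged Sham 13 (0.45) or Aged Sham 15 (0.65). With edgeR's quasi-likelihood test, 0 of 4 members were called between Aged Bleo and Aged Sham, although the log2 fold change of Sox17 was nearly the same (1.71). That test called few genes in this comparison, 146 over all genes against 1083 with DESeq2, so nothing is read from the 0.

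**Figure D2:**
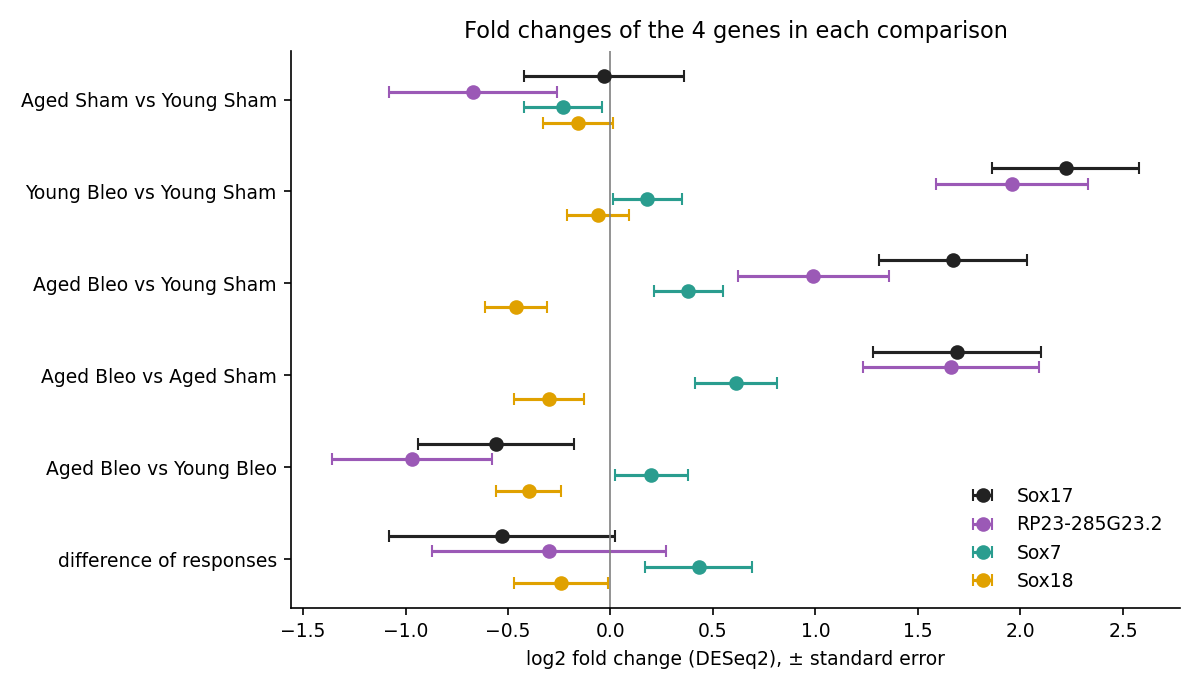
Log2 fold changes from DESeq2 with standard errors (horizontal axis) for the 4 genes in the 5 comparisons between groups and in the difference of responses, which is the aged response minus the young response. Sox17 and RP23-285G23.2 lie to the right in the bleomycin comparisons, at 2.22 and 1.96 in young mice, while Sox7 stays between -0.23 and 0.61 and Sox18 between -0.46 and -0.06.

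Levels can be compared between genes only per length, so the authors' FPKM values (fragments scaled to gene length and library total) were used for this. Sox18 ranked 61 of 43346 genes by mean FPKM over all libraries, Sox17 710, Sox7 764 and RP23-285G23.2 9649. In Young Sham the mean FPKM was 319 for Sox18, 37.1 for Sox7, 17.5 ± 3.01 (SD) for Sox17 and 0.637 for RP23-285G23.2. Young Bleo had 312, 42.9, 82.6 ± 24.5 and 2.50 for the same genes, Aged Sham had 260, 28.8, 15.5 ± 7.72 and 0.364, and Aged Bleo had 231, 47.8, 54.5 ± 31.9 and 1.24. Sox17 thus moved from rank 1775 in Young Sham to 317 in Young Bleo, and from 1965 in Aged Sham to 514 in Aged Bleo.

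The mix of SoxF transcripts changed accordingly. Sox17 made up 4.70% ± 0.781 (SD) of the summed FPKM of the 3 factors in Young Sham and 5.57% ± 3.93 in Aged Sham, against 18.8% ± 5.13 in Young Bleo and 15.8% ± 7.59 in Aged Bleo. Sox18 took 85.4% ± 2.22 and 84.5% ± 7.45 in those sham groups, 71.4% ± 5.46 in Young Bleo and 69.9% ± 7.69 in Aged Bleo. Sox17 FPKM exceeded Sox7 FPKM in 4 of 4 Young Bleo libraries and 2 of 4 Aged Bleo libraries, and in 0 of 5 Young Sham and 0 of 3 Aged Sham libraries. A share also depends on the other members, and the lower Sox18 level of Aged Bleo enters its Sox17 share.

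**Figure D3:**
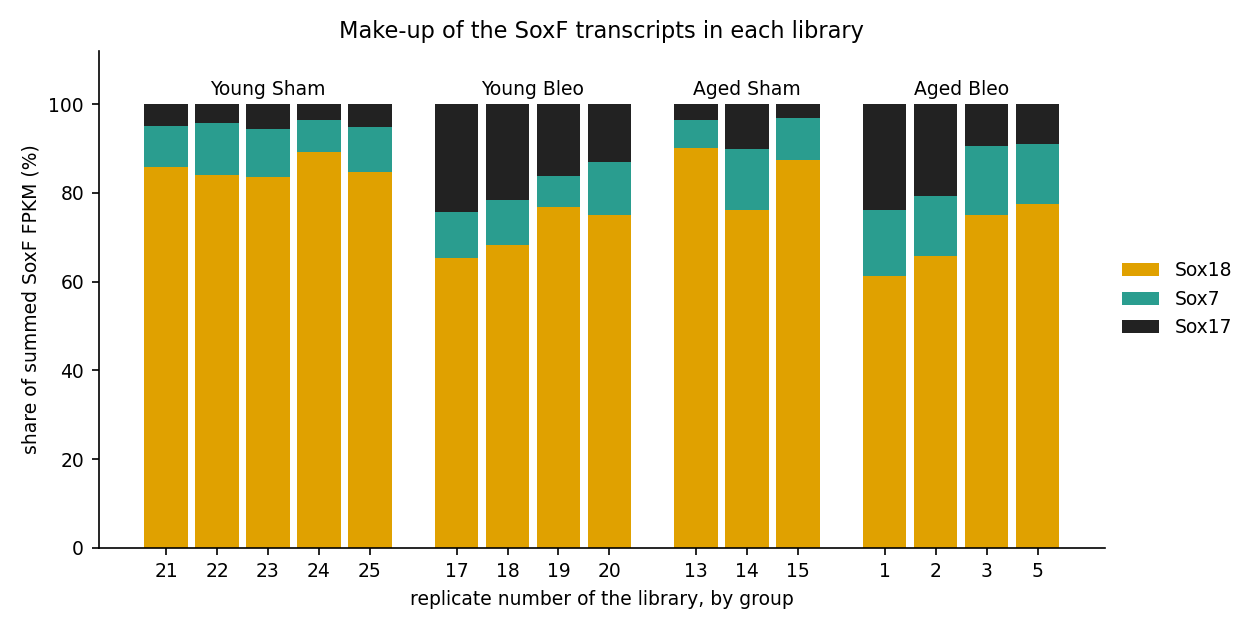
Share of the summed FPKM of Sox17, Sox7 and Sox18 (vertical axis, %) taken by each gene, with 1 bar for each of the 16 libraries, named by replicate number and ordered by group. Sox18 is the largest part of every bar, and the Sox17 part runs from 3.02% to 24.3%, with the high values in bleomycin libraries.

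Summed markers of EC subtypes differed between sham and bleomycin libraries, some in the direction of Sox17 and some in the opposite one. In Young Bleo, libraries 17, 18, 19 and 20 had summed aerocyte marker levels of 1468, 1950, 2710 and 7615 CPM, the reverse of their order by Sox17. Aerocytes are the large capillary ECs of the alveolar wall, marked here by Ednrb, Car4, Apln, Tbx2, Fibin and Emp2. In Aged Bleo, libraries 1 and 2 had 1400 and 2450 CPM, whereas libraries 3 and 5, with the low Sox17 values, had 10175 and 8501 CPM. The sham libraries had 9387 to 14650 CPM, so the Aged Bleo libraries nearest to sham in Sox17 were also nearest to sham in aerocyte markers.

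The summed level of 8 arterial markers was above the highest sham library in all 8 bleomycin libraries, at 1947 to 2533 CPM in Young Bleo and 1418 to 2589 CPM in Aged Bleo, against 978 to 1346 CPM in Young Sham and 888 to 1273 CPM in Aged Sham. Libraries 3 and 5 of Aged Bleo, at 1418 and 1429 CPM, were again beside the sham groups. The 7 lymphatic markers summed to 1707 to 3796 CPM in Young Bleo against 711 to 1008 CPM in Young Sham, and 995 to 1591 CPM in Aged Bleo against 816 to 980 CPM in Aged Sham. The 5 general capillary markers summed to 3990 to 5024 CPM in Young Bleo against 2777 to 3851 CPM in Young Sham, and to 3300 to 4440 CPM in Aged Bleo against 2160 to 3034 CPM in Aged Sham. The 6 venous markers were separated in young mice, at 1467 to 2437 CPM in Young Bleo against 966 to 1438 CPM in Young Sham, and overlapped in aged mice, at 1870 to 2125 CPM in Aged Bleo against 1174 to 2297 CPM in Aged Sham.

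Behind these sums, the single markers were called as follows. Between Young Bleo and Young Sham DESeq2 called 6 of 6 aerocyte markers lower, 5 of 8 arterial markers higher and 1 lower, 4 of 7 lymphatic, 2 of 6 venous and 1 of 5 general capillary markers higher. That 1 was Gpihbp1, while Aplnr and Ptprb of the same list had log2 fold changes of 0.41 and 0.42, and Plvap and Kit -0.06 and -0.09. Between Aged Bleo and Aged Sham it called 3 arterial, 2 general capillary and 1 venous marker higher, while the aerocyte and lymphatic markers did not pass the test there, at median log2 fold changes of -1.20 and 0.45. With edgeR the counts were 5 aerocyte lower, 5 arterial higher and 1 lower, 3 lymphatic, 1 venous and 1 general capillary higher in young mice, and 1 general capillary marker higher in aged mice. Over all genes DESeq2 called 7.57% higher and 6.35% lower in young mice, and 3.40% and 2.45% in aged mice. The edgeR test called 1793 and 146 genes there, in either direction.

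Leukocyte and macrophage markers, 9 of 10 listed genes being in the table, were also higher after bleomycin, although highest in Aged Bleo rather than Young Bleo, with sums of 436 to 1301 CPM in Young Bleo against 73.6 to 124 CPM in Young Sham, and 623 to 4140 CPM in Aged Bleo against 167 to 491 CPM in Aged Sham. Ptprc, which encodes the CD45 protein that the sort left out, had 18.9 normalized counts in Young Sham and 449 in Aged Bleo, groups that differ in both age and injury. Of the 9 genes, DESeq2 called 5 higher in Young Bleo against Young Sham and 4 in Aged Bleo against Aged Sham, and edgeR 5 and 2. Over all genes DESeq2 called 7.57% and 3.40% higher. The epithelial sums overlapped between the groups, and those of pericyte and smooth muscle markers were separated, at 87.9 to 222 CPM in Young Bleo against 225 to 523 CPM in Young Sham, and 60.0 to 111 CPM in Aged Bleo against 140 to 234 CPM in Aged Sham. Of these 8 markers, DESeq2 called 4 lower in Young Bleo against Young Sham and 2 lower in Aged Bleo against Aged Sham, and edgeR 2 and 0. Over all genes DESeq2 called 6.35% and 2.45% lower. Fibroblast sums were 206 to 335 CPM in Young Bleo against 152 to 377 CPM in Young Sham, and 81.9 to 164 CPM in Aged Bleo against 133 to 240 CPM in Aged Sham, and 3 of 8 bleomycin libraries were below every sham library. The 4 mesothelial markers, of the lining of the lung surface, summed to 30.7 to 90.0 CPM in Young Bleo against 2.68 to 11.1 CPM in Young Sham, where 1 of them was at 0 in all libraries, and to 5.23 to 35.3 CPM in Aged Bleo against 23.3 to 64.4 CPM in Aged Sham. Of the 4, 3 were called higher in Young Bleo against Young Sham by DESeq2 and by edgeR, beside 7.57% of all genes with DESeq2. No other defining marker of these lists was at 0 in a whole group. The part of these markers in the Sox17 values was not tested. In bulk samples, more cells of a Sox17-expressing kind and more Sox17 RNA per cell cannot be told apart.

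**Figure D4:**
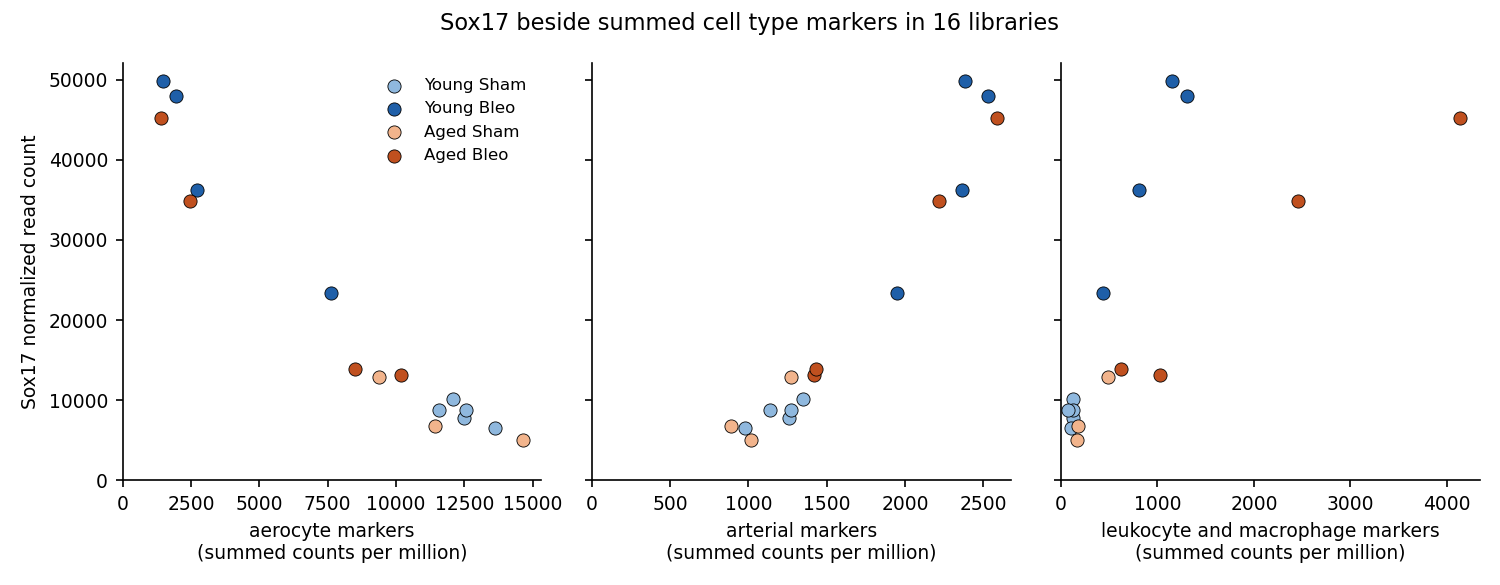
Sox17 normalized read count (vertical axis) against the summed CPM of aerocyte, arterial, and leukocyte and macrophage markers (horizontal axes, from 0) in the 16 libraries, coloured by group. Libraries with the most Sox17 have the lowest aerocyte sums (1400 to 2710 CPM) and the highest arterial sums, and Aged Bleo libraries 3 and 5 lie next to the sham libraries in the aerocyte and arterial panels.

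The genes of the SoxF pathway were then tested, 66 in all, of which 65 passed the low-count filter. The lists were chosen with earlier results of these data known, so their counts of calls are a description. Between Young Bleo and Young Sham, 14 of 65 were called higher and 7 lower, against 7.57% higher and 6.35% lower over all genes, and the median log2 fold change was 0.20 against 0.01 over all genes. Between Aged Bleo and Young Sham, 11 were called higher and 4 lower (6.58% and 3.14% over all genes), and between Aged Bleo and Aged Sham 8 and 1 (3.40% and 2.45%). Between Aged Sham and Young Sham, 2 were higher and 3 lower (2.24% and 1.12%), and between Aged Bleo and Young Bleo 2 were lower (0.585% higher and 0.406% lower over all genes). In the difference of responses DESeq2 and edgeR called 0 genes, with 10 genes at an unadjusted p under 0.05 in each. With edgeR the calls were 13 and 7, 8 and 3, 1 and 0, 0 and 1, and 0 and 0, in the same order of comparisons.

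Among 17 genes that act upstream of SoxF, 4 were higher and 3 lower in Young Bleo than in Young Sham. Ctnnb1, which encodes the Wnt effector β-catenin, rose from 15846 ± 1948 (SD) to 26878 ± 1117 normalized counts (log2 fold change 0.76 ± 0.16, DESeq2 adjusted p = 0.00013). Hif1a, the hypoxia-inducible factor, rose from 1970 ± 334 to 3888 ± 619 (0.98 ± 0.30, DESeq2 adjusted p = 0.0095), and Erg, an ETS factor of ECs, from 1213 ± 247 to 1956 ± 190 (0.69 ± 0.15, DESeq2 adjusted p = 0.00011). The VEGF receptor Kdr fell by 1.64 on the log2 scale (DESeq2 adjusted p = 0.00081, and -2.29 without Young Bleo 20), its co-receptor Nrp1 fell by 1.33 (8.9e-08) and Tcf7, a Wnt pathway factor, fell by 1.27 (0.0018). The receptor and co-receptor thus went in the direction opposite to Sox17.

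Erg differed from Sox17 in aged mice. It was higher in Aged Sham than in Young Sham (1928 ± 190 against 1213 ± 247 normalized counts, log2 fold change 0.67 ± 0.16, DESeq2 adjusted p = 0.0030, edgeR adjusted p = 0.056), where the Sox17 means were alike. It did not pass the test between Aged Bleo and Aged Sham (-0.14 ± 0.17), where Sox17 was 3.24-fold higher. The difference of responses of Erg missed the threshold (-0.83 ± 0.22, DESeq2 adjusted p = 0.052, range over the other settings 0.00049 to 0.45). Within aged mice, Vegfa rose from 4915 ± 1808 to 9013 ± 1588 (0.87 ± 0.26, DESeq2 adjusted p = 0.018) (edgeR adjusted p = 0.083), and lost the call without Aged Bleo 1 (0.76), Aged Sham 13 (0.80) or Aged Sham 15 (0.67).

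Among 17 Notch and arterial genes downstream of SoxF, 4 were higher and 4 lower in Young Bleo than in Young Sham. The gap junction genes of arterial ECs rose, Gja4 from 15836 ± 4018 to 43813 ± 12273 normalized counts (log2 fold change 1.47 ± 0.32, DESeq2 adjusted p = 0.00017) and Gja5 from 2247 ± 483 to 5105 ± 1311 (1.18 ± 0.29, 0.00094). Bmx, a kinase of arterial ECs, rose from 777 ± 71.8 to 1637 ± 234 (1.08 ± 0.18, 3.2e-07). The Notch ligand Dll4, an arterial gene with SoxF sites in its enhancers, fell from 11042 ± 1302 to 5895 ± 2015 (-0.91 ± 0.23, 0.0017), and Acvrl1, a BMP receptor, fell by 0.86 (0.00017). The arterial genes therefore did not all move with Sox17.

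In aged mice, Gja4 (log2 fold change 1.52 ± 0.37, DESeq2 adjusted p = 0.0023), Gja5 (1.13 ± 0.33, 0.017) and Bmx (0.77 ± 0.21, 0.0072) were higher in Aged Bleo than in Aged Sham. With edgeR's test their adjusted p-values were 0.057, 0.086 and 0.066, so these calls rest on the choice of tool. Without Aged Bleo 1 or Aged Sham 13, DESeq2 lost the calls of Gja5 (0.67 and 1.05) and Bmx (0.61 and 0.59). Gja4, Gja5, Bmx and Dll4 are also among the 8 arterial markers above. The receptor Notch1 did not pass the test in any comparison, with log2 fold changes between -0.26 and 0.47, the latter for the difference of responses. Cxcr4, a chemokine receptor of tip cells, was 3.28-fold lower for Aged Sham against Young Sham (DESeq2 adjusted p = 0.00047), with 137 ± 35.0 against 449 ± 141 normalized counts.

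Of 12 barrier, adhesion and guidance genes tested, Emcn was called higher and Cldn5 lower in Young Bleo than in Young Sham. Cldn5, the tight junction protein claudin-5, went from 220195 ± 24807 to 116302 ± 18486 normalized counts (log2 fold change -0.92 ± 0.17, DESeq2 adjusted p = 4.3e-06) and was also lower in Aged Bleo than in Aged Sham (-0.82 ± 0.19, 0.0017), where edgeR just missed the threshold (adjusted p = 0.050). Emcn, the sialoprotein endomucin of veins and capillaries, rose in young mice (0.54 ± 0.17, 0.015). Emcn stayed higher but lost this call without Young Bleo 18 (0.52), Young Bleo 19 (0.43) or Young Sham 23 (0.45). It was lower in Aged Bleo than in Young Bleo (-0.80 ± 0.18, DESeq2 adjusted p = 0.0035, edgeR adjusted p = 0.12). Tek, the angiopoietin receptor, was 1.73-fold lower for Aged Sham against Young Sham (DESeq2 adjusted p = 0.0066) and 2.01-fold higher for Aged Bleo against Aged Sham (0.00038), and edgeR called only the latter (0.044). The former was lost without Aged Sham 13 (-0.60).

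Of 10 lymphatic and venous genes, 4 were called higher in Young Bleo than in Young Sham. Prox1, the lymphatic factor downstream of Sox18, had 229 ± 138 normalized counts in Young Sham and 557 ± 308 in Young Bleo (log2 fold change 1.29 ± 0.45, DESeq2 adjusted p = 0.032) and edgeR did not call it (adjusted p = 0.076). Its call was also lost without Young Bleo 17 (1.33), Young Bleo 20 (0.84), Young Sham 21 (1.09) or Young Sham 24 (1.07). Pdpn, the lymphatic surface protein podoplanin, rose 3.52-fold (DESeq2 adjusted p = 1.0e-05), and Ccl21a, a lymphatic chemokine with near-identical copies and therefore an uncertain count, rose 3.65-fold (2.5e-09). Sox18 itself was at -0.06 ± 0.15 in that comparison, while the lymphatic marker sum was higher in all 4 libraries. Vwf, a clotting protein high in venous ECs, was 1.77-fold higher for Aged Bleo against Young Sham (0.0076).

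Of 10 cell cycle genes, Mki67, a marker of dividing cells, was called in Young Bleo against Young Sham, with 515 ± 382 against 166 ± 60.9 normalized counts (log2 fold change 1.63 ± 0.46, DESeq2 adjusted p = 0.0053). Without Young Bleo 18 it was 0.97 and not called. Ccne1, the cyclin E1 gene, did not pass in any comparison and was low, with 37.0 ± 30.4 in Young Sham and 88.7 ± 45.7 in Young Bleo. Ccnd1, the cyclin D1 gene, was 1.58-fold higher for Aged Sham against Young Sham (DESeq2 adjusted p = 0.0097, edgeR adjusted p = 0.084), a call lost without Aged Sham 14 (0.68) or Aged Sham 15 (0.62).

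Outside the SoxF group, 16 further Sox genes were in the table and 9 of them were tested in the comparisons with a sham group. Sox13 and Sox4 were the other abundant ones, with mean FPKM of 23.1 and 10.8 over all libraries, and Sox12 followed at 0.282. Sox13 had 10807 ± 2090 normalized counts in Young Sham and 9636 ± 1846 in Young Bleo and was not called. Sox4 was 1.98-fold lower for Aged Sham against Young Sham (3298 ± 1001 against 6531 ± 1778, DESeq2 adjusted p = 0.038, edgeR adjusted p = 0.15), and leaving out any of 6 libraries, Aged Sham 15 (-0.83) and Young Sham 23 (-0.84) among them, ended that call. Sox11, named after its values were seen, was called lower in Young Bleo at a mean of 0.0197 FPKM (DESeq2 adjusted p = 0.021, edgeR adjusted p = 0.10). No further Sox gene was called higher in any comparison by DESeq2, with 2, 1, 1, 0, 1 and 1 genes at an unadjusted p under 0.05 in the 6 comparisons.

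Neighbouring genes gave few calls. Within 250 kb of Sox17 the table lists 12 other genes besides RP23-285G23.2, of which 4 passed the filter, all with mean normalized counts of 35.5 or less, and neither DESeq2 nor edgeR gave any of them an unadjusted p under 0.05. Their log2 fold changes between Young Bleo and Young Sham were 1.63 ± 0.90 for RP23-285G23.3, 1.94 ± 1.53 for Rp1, 2.60 ± 2.69 for RP23-37D15.1 and 0.17 ± 0.38 for Gm6085. The first 3 are too imprecise to say whether they followed Sox17 (2.22 ± 0.36) or not. Near Sox7, 4 of 11 neighbours were tested, and Xkr6 was called higher in Aged Sham than in Young Sham (DESeq2 adjusted p = 0.028, edgeR adjusted p = 0.12), but not without Aged Sham 14 (0.93), Young Sham 21 (1.57), Young Sham 22 (1.42) or Young Sham 25 (1.52). Near Sox18, 12 of 22 were tested in that comparison, and Znf512b, at 77033 bases from Sox18, was called higher in Aged Bleo than in Aged Sham (log2 fold change 0.69 ± 0.16, DESeq2 adjusted p = 0.0010, edgeR adjusted p = 0.053).

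The genes with the pattern most like Sox17 were ranked among 13774 genes with a mean of at least 50 normalized counts. The measure was the root mean square difference, over the 16 libraries, of log2(normalized count + 1) values after subtracting each gene's mean. It was 1.10 for Sox17 against a flat line. Fam181b (0.16), Gm9934 (0.20), Marcksl1 (0.27), Grrp1 (0.30), Jam2 (0.30) and Tubb6 (0.30) came first. Fam181b and Gm9934 overlap on chromosome 7, so their reads may be shared. RP23-285G23.2 was at rank 50 (0.44), Sox7 at rank 1648 (0.94) and Sox18 at rank 7767 (1.20).

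Jam2, which encodes a junctional adhesion molecule of ECs, went from 4474 ± 605 normalized counts (SD) in Young Sham to 18539 ± 2834 in Young Bleo, and from 5597 ± 2423 in Aged Sham to 14351 ± 8691 in Aged Bleo. Marcksl1, which binds actin, went from 998 ± 56.5 to 4460 ± 1368 and from 755 ± 229 to 2794 ± 1888 in the same groups. Both had, like Sox17, a wide spread in Aged Bleo. Most like Sox7 were Armcx1 (0.11), Ace (0.13), the angiotensin-converting enzyme of lung ECs, and Colgalt1 (0.13). Most like Sox18 were Ddx39b (0.15), Gamt (0.15) and Cmtm3 (0.16). These genes were picked for their pattern in the same libraries, so no test is given.

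**Figure D5:**
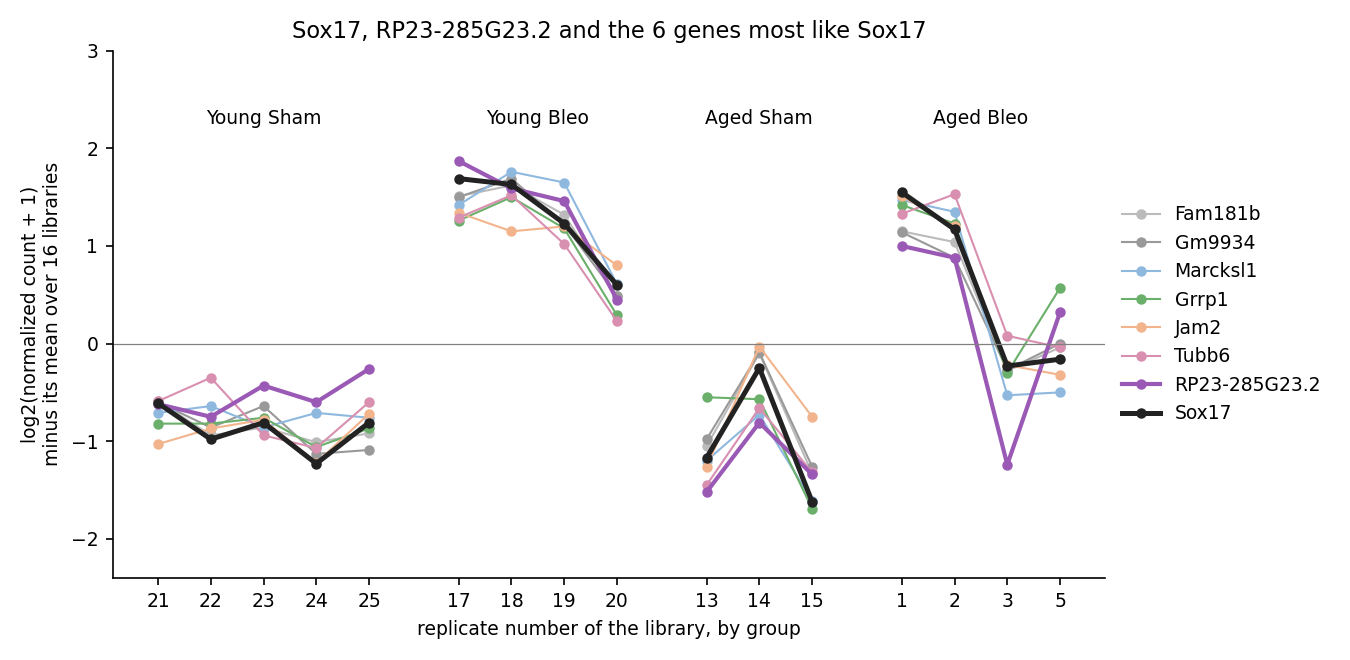
Log2(normalized count + 1) minus the gene's mean over the 16 libraries (vertical axis) for Sox17, RP23-285G23.2 and the 6 genes most like Sox17, with libraries on the horizontal axis by group and replicate number; lines join the values of a gene within a group and imply no order. The curves fall together at Young Bleo 20 and Aged Bleo 3 and 5, and RP23-285G23.2 lies below the others at Aged Bleo 3.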

How the data were processed

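RNA of sorted mouse lung ECs was measured by paired-end sequencing with reads of 100 bases. Per the submitters' processing notes and the study's methods, the authors aligned reads to mm10 with STAR 2.5.2b and counted them per gene with featureCounts of Subread; the annotation release and strand setting are not given in the sources used here. The deposited counts are whole reads per gene, not normalized. The deposited FPKM values are counts scaled by the authors to gene length and library total.

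The 16 libraries were grouped by title. Counts of all 43346 genes were fitted in 1 model with a term per group by DESeq2 1.42.0 (R 4.3.3) and tested with its Wald test (two-sided, Benjamini-Hochberg adjustment); called genes had an adjusted p of at most 0.05 and a log2 fold change of at least 0.5 in size. Standard errors are from that fit. Alternatives were edgeR 4.0.16 (quasi-likelihood test, TMM), limma 3.58.1 (voom, and trend on log2(FPKM + 0.1) or log2(FPKM + 1)), a filter of at least 10 counts in at least 3 libraries, a fit of only the groups compared, and leaving out each library. The fits were tested on simulated data, where the share of false calls was near the adjusted p threshold for edgeR and well above it for DESeq2. DESeq2 was kept as the study's test, and edgeR's counts of calls are given beside its own, with edgeR's adjusted p for named genes that only DESeq2 called. CPM is counts scaled to a common library total.

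Named were the 4 members, up to 3 called genes per list, direction and comparison with a mean of at least 50 normalized counts, with Erg, Hif1a, Ccne1, Dll4, Notch1 and Prox1 in any case, the 6 genes most like Sox17, the 3 most like Sox7 and Sox18, and called neighbours within 250 kb. Sox11 falls outside this rule. Some genes the rule names are given only in the counts. The members and lists were chosen with earlier results of these data known. An alignment of the coding sequences of the 3 factors is not reported here. The sequence and transcripts came from GENCODE M21 (GRCm38), in which Sox7 starts 1 base earlier than in the table. Columns of the table other than counts, FPKM and gene descriptions were not present.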

Additional observations from a re-analysis of the deposited data

How the results depend on the processing

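The log2 fold changes of the 4 members kept their sign under every tool, filter and left-out library, except that Sox17 and Sox18 between Aged Sham and Young Sham crossed 0 when single libraries were left out. RP23-285G23.2 moved under limma on log2(FPKM + 1), which understates the change of low genes, to -0.26 (Aged Sham against Young Sham), 1.06 (Young Bleo against Young Sham) and 0.67 (Aged Bleo against Aged Sham). Ranked on log2(FPKM + 0.1), 5 of the 6 genes most like Sox17 were shared, with Gm26840 in place of Tubb6, and 2 of the 3 most like Sox7, with Appl2 in place of Colgalt1. No paired analysis was possible because the groups share no replicate numbers.

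Counts of calls were more sensitive, and their causes were not tested beyond the change of tool or sample. For all genes, edgeR, limma on log2(FPKM + 0.1), limma on log2(FPKM + 1) and limma voom called 158, 139, 159 and 104 between Aged Sham and Young Sham, 1043, 1141, 892 and 1120 between Aged Bleo and Young Sham, 146, 369, 279 and 53 between Aged Bleo and Aged Sham, 8, 32, 54 and 29 between Aged Bleo and Young Bleo, and 1, 0, 3 and 1 in the difference of responses. Between Young Bleo and Young Sham limma on log2(FPKM + 1) called 1478. For the pathway genes the same tools called 1, 1, 1 and 0 between Aged Sham and Young Sham, 1, 4, 4 and 1 between Aged Bleo and Aged Sham, and 0, 1, 1 and 0 between Aged Bleo and Young Bleo, and limma on log2(FPKM + 1) called 9 between Aged Bleo and Young Sham. Of the members, 0, 1, 1 and 0 were called between Aged Bleo and Aged Sham. A fit of only those groups called 645 genes and 4 pathway genes there.

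Leaving out each library in turn gave 370 to 691 genes called and 3 to 9 pathway genes between Aged Sham and Young Sham (fewest without Aged Sham 14, and 3 pathway genes also without Aged Sham 13), 1048 to 2274 and 7 to 18 between Aged Bleo and Young Sham (1048 without Aged Bleo 1, 7 without Aged Bleo 2), 474 to 1492 and 3 to 15 between Aged Bleo and Aged Sham (474 without Aged Bleo 1, 3 without Aged Sham 13, 15 without Aged Bleo 3), 109 to 469 genes between Aged Bleo and Young Bleo (469 without Young Bleo 20), and 37 to 226 genes and 0 to 5 pathway genes in the difference of responses (226 and 5 without Young Bleo 20). Members called ranged from 1 to 2 between Aged Bleo and Young Sham, RP23-285G23.2 being added without Aged Bleo 3 or Young Bleo 20 and Sox18 (log2 fold change -0.51) without Young Sham 23, and from 1 to 3 between Aged Bleo and Aged Sham (1 without Aged Bleo 1). The depth limits RP23-285G23.2 most, whose lowest library has 47 reads.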
